A study of Vitis vinifera with 36 samples.

Results

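The genes described here are those of the photosynthetic apparatus. They are the 87 genes, of 27751 in the deposited table, whose KEGG pathway annotation contains the word Photosynthesis, and 20 of them are annotated as antenna proteins. The study sequenced RNA of grape (Vitis vinifera) berries from ‘Summer Black’ (named Sanbenti in the sample labels) and from its early-ripening bud sport ‘Nantaihutezao’ (named 11-06-25 in the labels), matched by their role as parent and bud sport. Sampling ran from veraison (S5) to ripening (S10) in steps of 7 days, with 3 libraries per cultivar and stage and 36 libraries in all. The labels give no day for S10, and the methods do not say whether S5 fell on the same date in both cultivars. All vines were 3 years old and grew in a plastic film greenhouse without a further treatment. The pericarp was used for RNA according to the study's methods, while the labels name the berry. The bud sport is a single clonal line, and how the replicates relate to separate vines is not given in the sources used here, so that p-values measure the spread between these libraries only.

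In oxygenic photosynthesis, antenna proteins bind chlorophyll and pass light energy to the reaction centres of photosystem II and photosystem I. Photosystem II splits water, and electrons then move through the cytochrome b6f complex and plastocyanin to photosystem I, ferredoxin and ferredoxin-NADP reductase (FNR), while ATP synthase uses the proton gradient that this flow builds. Some subunits are encoded in the plastid genome and the others in the nucleus. Young grape berries are green, and from veraison they lose chlorophyll and, in coloured cultivars, gain anthocyanin.

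By the KEGG orthology of each gene, 6 members belonged to the antenna of photosystem I (Lhca), 14 to the antenna of photosystem II (Lhcb), 13 to photosystem I (Psa), 29 to photosystem II (Psb), 6 to cytochrome b6f, 9 to the electron carriers and 10 to ATP synthase. Genes annotated as PsbP-like or PsbQ-like share the orthology numbers of PsbP and PsbQ and are counted under photosystem II for that reason alone. By orthology number, the electron carriers likewise include ferredoxins annotated as root R-B1 and R-B2 and a ferredoxin-NADP reductase annotated as the root isozyme. That group is therefore not limited to leaf-type carriers. Of the 87 members, 29 carried an orthology number of subunits that land plants encode in the plastid (a number that also covers the nuclear gene of ATP synthase subunit b'), and 17 members had no read in any library. For these gene models other than the b' gene VIT_04s0008g05590, which was matched to a nuclear RefSeq gene, reads of the gene itself and of organelle transcripts cannot be told apart. Through the gene identifiers in the file, 63 members were matched to RefSeq names, of which 4 led to genes of the mitochondrial genome and 3 to genes of the plastid genome. One of the former was the PsbA-like model VIT_13s0019g02630.

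The reads counted on genes numbered from 15323095 to 20469617 in a library, and no library was a copy of another. The scaling factors (TMM) of ‘Summer Black’ at S5 were the highest, from 1.205 to 1.224, against 0.9163 to 1.058 in the other libraries. Of the 87 members, 65 had enough reads to be tested over the 36 libraries, and the others are not part of any count of tested members there.

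The members together made up a small share of the counted reads, and this share was lower at S10 than at S5 in both cultivars. In ‘Summer Black’ it was 0.470% ± 0.00741 (SD, n = 3) at S5, 0.403% ± 0.0211 at S7, 0.218% ± 0.00677 at S8 and 0.120% ± 0.00283 at S10. In ‘Nantaihutezao’ the share was 0.303% ± 0.0117 at S5, 0.244% ± 0.00153 at S7, 0.147% ± 0.00489 at S8 and 0.133% ± 0.00492 at S10. In bulk RNA, fewer cells that carry such transcripts and fewer transcripts per cell cannot be told apart. After scaling, the summed CPM of the members (counts scaled to a common library size) were 3864 ± 84.7 in ‘Summer Black’ and 2930 ± 139 in ‘Nantaihutezao’ at S5. At S10 they were 1230 ± 35.5 and 1370 ± 62.6, so that the order of the cultivar means was the opposite of that at S5. Not every role shared this reversal. The Lhcb sum at S10 was 124 ± 2.54 in ‘Summer Black’ and 121 ± 9.56 CPM in ‘Nantaihutezao’, and the cytochrome b6f sum 71.6 ± 3.42 and 72.0 ± 1.47 CPM. The sum of the electron carriers was higher in ‘Nantaihutezao’ at both stages, with 787 against 828 CPM at S5 and 429 against 482.5 CPM at S10.

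**Figure D1:**
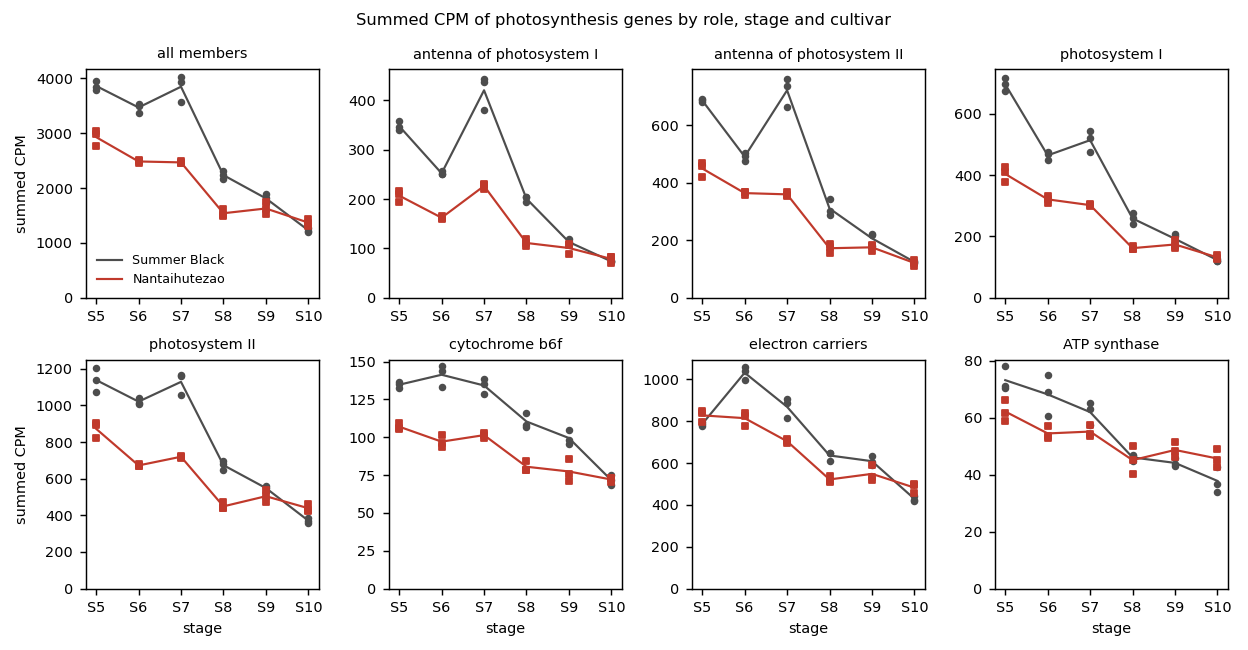
Summed CPM (y axis, from 0) of all members and of each role at the 6 stages (x axis), with 1 point per library and a line through the mean of 3 libraries for each cultivar. The sum of all members went from 3864 to 1230 CPM in ‘Summer Black’ and from 2930 to 1370 CPM in ‘Nantaihutezao’.

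Scaled by transcript length as well as library size (FPKM), the member with the highest level at S5 in ‘Summer Black’ was ferredoxin VIT_12s0035g00270, the soluble electron carrier after photosystem I, with 871 ± 10.2 FPKM (SD, n = 3). PsaD (VIT_05s0020g03180), a nuclear-encoded subunit of photosystem I at which ferredoxin docks, followed with 702 ± 23 FPKM. PsbR (VIT_19s0027g00200), a small subunit of photosystem II, was at 659 FPKM, and the most abundant antenna gene per length was Lhcb2 (VIT_12s0057g00630) with 289 FPKM.

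The first question was how the members changed over ripening within each cultivar. Most of those tested fell. In ‘Summer Black’, 41 of 64 members tested were lower at S10 than at S5 (false discovery rate, FDR, under 0.05 over all genes tested and a log2 fold change beyond 1) and 0 were higher, against 19.2% lower and 13.0% higher among all 16479 genes tested. In ‘Nantaihutezao’, 34 of 62 were lower and 4 higher, against 17.6% and 11.2% of all 16265 genes. The median log2 fold change of the members tested was -1.70 in ‘Summer Black’ and -1.18 in ‘Nantaihutezao’, where the medians of all genes were -0.03 and 0.01. In both cultivars 32 of the 62 members tested in both were lower, against 11.8% of all genes.

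The antenna genes had the lowest medians, in which each gene counts alike. In summed CPM, which follow the abundant genes, the order differed. From S5 to S10 the Lhca sum went from 348 to 73.6 CPM in ‘Summer Black’ and from 207 to 78.6 CPM in ‘Nantaihutezao’. The photosystem I sum went from 697 to 123 and from 404 to 132 CPM, a larger relative fall in both. The Lhcb sum went from 686.5 to 124 and from 450 to 121 CPM. All 6 Lhca genes in ‘Summer Black’ and 5 of 6 in ‘Nantaihutezao’ were lower at S10, with medians of -4.53 and -3.12 on the log2 scale. Of the Lhcb genes, 10 of 12 and 9 of 11 were lower, with medians of -2.67 and -2.35. Of the photosystem I genes, 9 of 11 and 8 of 11 were lower, and of the photosystem II genes 9 of 16 and 7 of 15. In the other groups 4 of 9 and 3 of 9 electron carriers, 3 of 6 and 2 of 6 ATP synthase genes, and 0 of 4 cytochrome b6f genes were lower. The 6 ATP synthase genes include VIT_00s0246g00220 and VIT_01s0146g00390, both matched to the mitochondrial gene atp8 and not called lower in either cultivar. Their ratios of S5 to S10 were 0.952 and 0.803 in ‘Summer Black’ and 1.06 and 0.453 in ‘Nantaihutezao’. The 4 cytochrome b6f genes include VIT_10s0092g00760, which the file describes as a mitochondrial protein.

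Lhca1 (VIT_13s0019g04140), an antenna protein of photosystem I, was measured in ‘Summer Black’ at 86.7, 77.8 and 83.8 CPM at S5 and at 1.03, 0.917 and 1.51 CPM at S10. The 3 libraries of ‘Nantaihutezao’ held 39.1, 43.8 and 45.9 CPM at S5 and 1.5, 2.13 and 2.25 CPM at S10. No library at S10 came near any at S5, and the log2 fold changes were -6.16 ± 0.15 (SE) and -4.45 ± 0.13, with adjusted p of 7.77e-18 and 6.44e-19 (edgeR). Lhca2 (VIT_01s0010g03620) and Lhca3 (VIT_15s0024g00040), the other abundant antenna genes of photosystem I, fell less. Lhca2 was at 120.1 ± 4.69 CPM at S5 and 35.3 ± 0.976 at S10 in ‘Summer Black’, and Lhca3 at 95.4 ± 1.9 and 35.1 ± 1.69. For Lhca3 the log2 fold change in ‘Nantaihutezao’ was -0.66 ± 0.07, which passed the FDR but not the fold threshold.

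Lhca5 (VIT_18s0001g10550), a minor antenna protein in Arabidopsis, was at 4.37, 3.2 and 2.34 CPM in ‘Summer Black’ at S5 and at 0.162, 0.0539 and 0.108 CPM at S10. In ‘Nantaihutezao’ it held 0.794, 0.684 and 1.06 CPM at S5 and had 0 reads in all libraries of S10. Against a floor of 3 counts per library, it was at least 5.27-fold lower at S10 in ‘Nantaihutezao’.

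The Lhcb1 gene with the highest level (VIT_10s0003g02890), which encodes a protein of the trimeric light-harvesting complex, was at 102, 103 and 110.0 CPM at S5 and at 2.64, 2.7 and 3.18 CPM at S10 in ‘Summer Black’. In ‘Nantaihutezao’ its values were 57.2, 61.4 and 66.8 CPM at S5 and 1.5, 1.6 and 1.5 CPM at S10. The stages did not overlap in either cultivar. The log2 fold changes were -5.20 ± 0.12 and -5.33 ± 0.17, with adjusted p of 2.15e-18 and 1.34e-18 (edgeR), and their difference of -0.12 ± 0.26 did not pass the test (adjusted p = 0.734, edgeR). Whether it shares reads with the neighbouring Lhcb1 gene VIT_10s0003g02900 was not tested. That gene had 401 reads at S5 and 1 read at S10 over the libraries of ‘Nantaihutezao’, a ratio of 396 with a 95% counting interval from 75.3 to 16700. Another Lhcb1 gene, VIT_07s0005g02220, went from 22.5 ± 1.69 to 0.288 ± 0.173 CPM in ‘Summer Black’ and from 2.2 ± 0.44 to 0.178 ± 0.0616 CPM in ‘Nantaihutezao’.

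Lhcb2 (VIT_12s0057g00630), another protein of the trimeric complex, and Lhcb4 (VIT_08s0007g02190), a monomeric antenna protein near the core of photosystem II, fell less. Lhcb2 went from 188 ± 3.9 to 38.4 ± 1.62 CPM in ‘Summer Black’ and Lhcb4 from 175 ± 6 to 51 ± 3.2 CPM. The Lhcb3 copy VIT_00s0181g00180 had 53 reads in ‘Summer Black’ at S5 and 0 at S10, at least 5.81-fold lower against the same floor. Its call was lost when only the 6 libraries of S5 and S10 were fitted.

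PsaD was the photosystem I gene with the highest FPKM. It was at 280.0, 268 and 281 CPM in ‘Summer Black’ at S5 and at 32.2, 32.1 and 33.8 CPM at S10, a log2 fold change of -3.08 ± 0.11. In ‘Nantaihutezao’ it held 152, 171 and 167 and then 37.5, 39.8 and 35.9 CPM, and the log2 fold change was -2.12 ± 0.07. The libraries of ‘Nantaihutezao’ were the lower ones at S5 and the higher ones at S10, without overlap.

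In photosystem II, PsbO (VIT_00s0207g00210) and PsbP (VIT_12s0028g01080), extrinsic proteins that stabilize the site of water oxidation, changed by less than the fold threshold in both cultivars. PsbO was at 235 ± 4.29 CPM in ‘Summer Black’ at S5, at 337 ± 11.6 at S7 and at 133 ± 6.25 at S10. The gene of the other extrinsic protein, PsbQ (VIT_00s0904g00010), went from 138, 131 and 134 CPM to 12.7, 15.9 and 16.6 CPM in the libraries of ‘Summer Black’, with a log2 fold change of -3.16 ± 0.10.

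Among the carriers, ferredoxin VIT_12s0035g00270 went from 381 ± 10.3 to 151 ± 4.62 CPM in ‘Summer Black’ and from 434 ± 19.8 to 158 ± 16.2 CPM in ‘Nantaihutezao’. FNR VIT_10s0003g04880, annotated as the root isozyme, was at 89.2, 79.5 and 85.2 CPM at S5 and at 127, 123 and 121 CPM at S10 in ‘Summer Black’, higher at S10 with no overlap. Its log2 fold changes of 0.55 ± 0.05 and, in ‘Nantaihutezao’, 0.25 ± 0.04 passed the FDR with adjusted p of 1.49e-08 and 5.03e-06 (edgeR) but not the fold threshold. The Rieske iron-sulfur protein of cytochrome b6f (VIT_19s0014g03850) had a log2 fold change of -0.999 in ‘Summer Black’, just short of the fold threshold. Its second copy VIT_12s0134g00510 was at 10.4 ± 0.703 CPM at S5 and 8.97 ± 1.05 at S10. The ATP synthase subunits delta (VIT_18s0164g00030) and b' (VIT_04s0008g05590) had log2 fold changes of -1.40 ± 0.10 and -0.98 ± 0.13 in ‘Summer Black’, of which the former was called.

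Of the 4 members that were higher at S10 in ‘Nantaihutezao’, 3 were among the 29 models with the orthology of plastid-encoded subunits. The other was VIT_19s0014g05080, annotated as PsbQ-like protein 2, at 0.37, 0.316 and 0.159 CPM at S5 and 2.89, 2.02 and 1.34 CPM at S10, without overlap. Its log2 fold change was 2.85 ± 0.47 with an adjusted p of 8.72e-06 (edgeR). In ‘Summer Black’ the same gene had -1.45 ± 0.63, a call that was lost in 10 of 12 alternatives, among them DESeq2, the fit with the replicate block and the fit of the 6 libraries of S5 and S10. The PsbA-like model VIT_13s0019g02630 and the PetB-like model VIT_10s0092g00760, which the file describes as a mitochondrial protein, had log2 fold changes of 1.48 ± 0.49 and 1.79 ± 0.56. The calls of all 4 were set against a stricter test, of the fold threshold itself (glmTreat), which kept only that of the PsbQ-like gene. Without replicate 1 of ‘Nantaihutezao’ at S5, the PsbA-like call was lost as well, with an adjusted p of 0.0524 (edgeR). The fourth was VIT_01s0146g00390, matched to the mitochondrial gene atp8 and named after its values were seen, at 0.669 ± 0.111 and 1.48 ± 0.73 CPM. Its libraries overlapped between the stages, and the call was lost without replicate 1 or 2 at S5 and without replicate 2 or 3 at S10.

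The course between S5 and S10 was not even. Of the 62 members tested over S5 to S10 in both cultivars, the largest step down of the means fell between S7 and S8 for 33 in ‘Summer Black’. In ‘Nantaihutezao’ it did so for 42. In ‘Summer Black’ the median step on the log2 scale was -0.28 to S6, 0.23 to S7, -0.79 to S8, -0.37 to S9 and -0.52 to S10. Among the Lhca genes of this cultivar the median step was -0.91 to S6 and 0.70 to S7. In ‘Nantaihutezao’ the median step over the members was -0.18 to S6, -0.06 to S7, -0.65 to S8, 0.06 to S9 and -0.26 to S10. These steps describe group means, without a test. They were not computed for all genes, so that a shift of the members cannot be told from a general one.

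**Figure D2:**
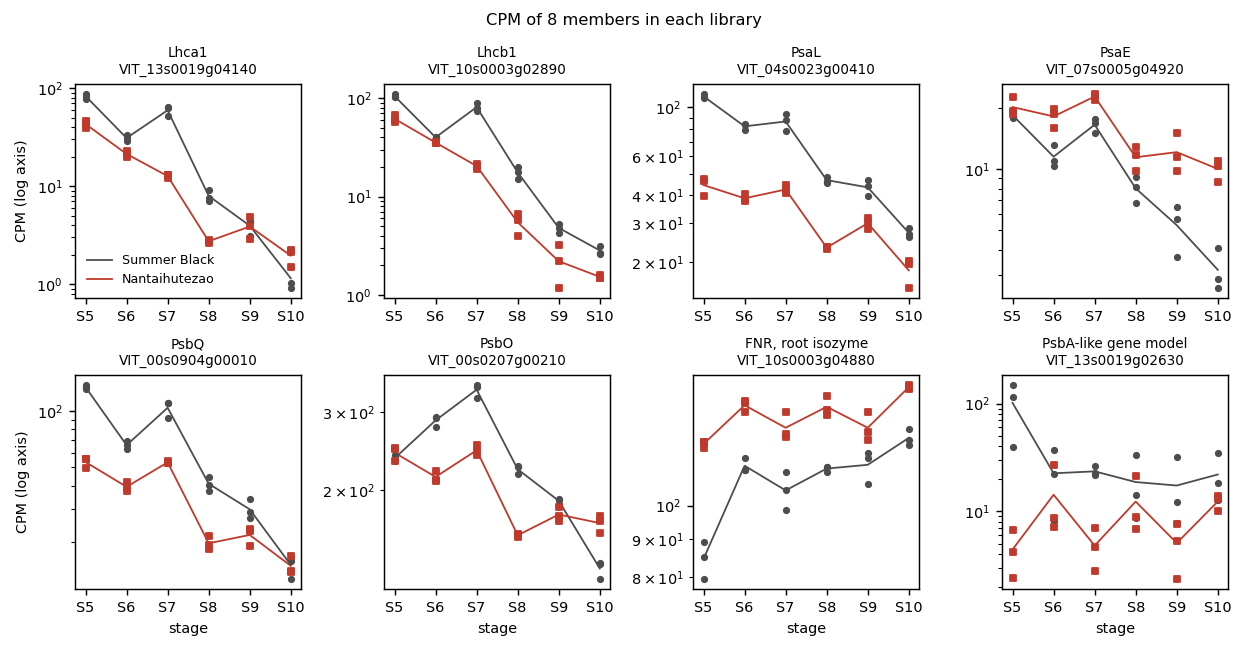
CPM of 8 members (y axis, log scale) in each library at the 6 stages (x axis), with lines through the means of 3 libraries. Lhca1 (VIT_13s0019g04140) had means of 82.8, 30.9 and 59.3 CPM over the first 3 stages in ‘Summer Black’, against 42.9, 21.3 and 12.7 CPM in ‘Nantaihutezao’.

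The second question was how the bud sport differed from its parent at the same stage. A stage here is a sampling step, and the cultivars may differ in ripening state at it. At S5 the anthocyanin gene UFGT was at 6.87 ± 0.408 CPM in ‘Summer Black’ and 371 ± 19.1 CPM in ‘Nantaihutezao’. Differences by cultivar and by ripening state cannot be told apart in these comparisons. From S5 to S8, every member called was lower in ‘Nantaihutezao’. For S5, 14 of 60 members tested were lower and 0 higher, against 8.63% lower and 7.51% higher among all 15848 genes. For S6, 6 of 61 were lower and 0 higher, against 3.89% and 2.69%. For S7, 17 of 61 were lower and 0 higher, against 4.55% and 3.47%. For S8, 6 of 59 were lower and 0 higher, against 3.76% and 2.71%.

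At S9, 3 of 57 members were lower and 1 higher, against 1.85% and 3.44% of all genes. The count of lower members there was 1 without replicate 1 of ‘Nantaihutezao’, 0 without its replicate 2 and 1 without replicate 2 of ‘Summer Black’, and the count of higher members was 2 without replicate 1 or 2 of ‘Summer Black’. At S10, 0 were lower and 3 of 57 higher, against 5.1% and 3.59%. Without replicate 3 of ‘Summer Black’ at S10, 2 members were lower.

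Smaller differences were more frequent. Without a fold threshold, 42 members were lower and 6 higher at S5, where 33.8% and 33.3% of all genes were. The counts were 42 and 3 for S6 (all genes 20.5% and 20.1%), 49 and 2 for S7 (24.3% and 23.4%) and 30 and 2 for S8 (17.6% and 16.2%). They were 10 and 4 for S9 (10.8% and 11.3%) and 5 and 17 for S10 (24.0% and 22.5%). The median log2 fold change of the members went from -0.47 at S5 over -0.48, -0.76, -0.51 and -0.12 to 0.09 at S10, while that of all genes stayed between -0.02 and 0.01. Under upper-quartile scaling, PsbO and the second Rieske copy VIT_12s0134g00510 changed the sign of their small differences at S5, and neither was called under either scaling.

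**Figure D3:**
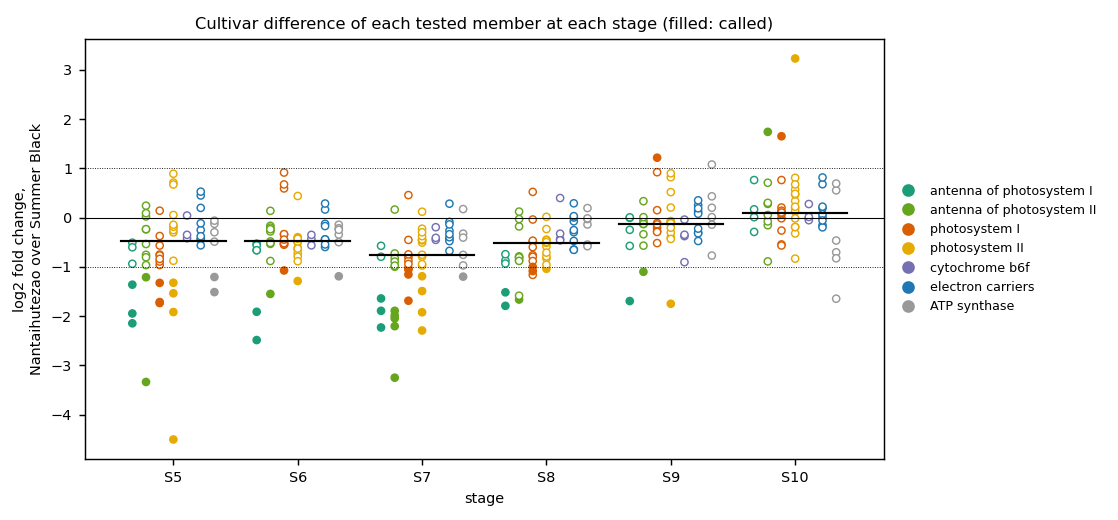
Log2 fold change of ‘Nantaihutezao’ over ‘Summer Black’ (y axis) for each tested member at each stage (x axis), coloured by role, with filled points for called members, black bars for the median and dotted lines at the fold threshold. Filled points lie below 0 from S5 to S8, with 17 at S7, and 3 lie above 0 at S10.

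By role, 3 of 5 Lhca, 5 of 11 Lhcb, 4 of 11 photosystem I and 4 of 16 photosystem II genes were lower at S7, besides 1 of 6 ATP synthase genes. None of the 9 electron carriers and 3 cytochrome b6f genes tested passed both thresholds at S7. The ATP synthase gene was VIT_01s0146g00390, matched to mitochondrial atp8, and its call was lost in 6 of 12 alternatives. The photosystem counts include the PsaB model VIT_09s0002g08340 and the PsbA-like model VIT_13s0019g02630. Without the models that carry the orthology of plastid-encoded subunits, 10 of 52 members tested were lower at S5 and 14 of 53 at S7. Across the 6 stages, 25 of 63 members tested were called at any stage (39.7%), where 26.2% of all 16510 genes tested were. Of the 59 members tested at both S5 and S7, 10 were lower at both, against 1.99% of all genes. Among the 10 were the models VIT_01s0146g00390, VIT_09s0002g08340 and VIT_13s0019g02630.

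Lhca1 (VIT_13s0019g04140) was at 52, 63.6 and 62.5 CPM in ‘Summer Black’ and at 12.1, 12.9 and 13 CPM in ‘Nantaihutezao’ at S7, and the groups did not overlap. The log2 fold change was -2.23 ± 0.08 with an adjusted p of 2.21e-10 (edgeR). At S8 it was -1.52 ± 0.16, and at S9, with 3.13, 4.31 and 4.42 against 2.89, 3.95 and 4.8 CPM, the libraries overlapped and no difference was detectable.

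A second gene with the Lhca2 orthology, VIT_11s0016g00730 (symbol LHCA6 in the file), was the one member called lower at 5 stages, S5 to S9. At S5 it was at 6.07, 5.65 and 6.48 CPM in ‘Summer Black’ and at 1.22, 1.26 and 1.59 CPM in ‘Nantaihutezao’, a log2 fold change of -2.15 ± 0.18 with an adjusted p of 4.13e-08 (edgeR). The value was -1.91 for S6, -1.89 for S7, -1.79 for S8 and -1.69 for S9. The call at S9 was lost under glmTreat, without replicate 2 (adjusted p = 0.105, edgeR) or replicate 3 (0.0524) of ‘Summer Black’ and without replicate 2 (0.0917) or replicate 3 (0.0986) of ‘Nantaihutezao’ at that stage.

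PsaL (VIT_04s0023g00410), the photosystem I subunit through which the cyanobacterial complex forms trimers, was called lower from S5 to S8. At S5 it held 115, 110.0 and 112 CPM in ‘Summer Black’ and 39.7, 47.3 and 46.5 CPM in ‘Nantaihutezao’, far apart, with a log2 fold change of -1.32 ± 0.06 and an adjusted p of 8.94e-12 (edgeR). The values at S6 (-1.07), S7 (-1.03) and S8 lay at the threshold. At S7 the value was -0.999 without replicate 3 of ‘Nantaihutezao’ and -0.968 without replicate 2 of ‘Summer Black’. At S8 it was -0.991 without replicate 2 of ‘Nantaihutezao’ and -0.977 without replicate 3 of ‘Summer Black’. With the replicate block the value at S8 was -0.9996 and with all 36 libraries in 1 fit -0.999. The call was lost in each of these fits, and under glmTreat from S6 to S8.

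Among the Lhcb genes, Lhcb1 VIT_07s0005g02220 had the lowest called value at S5, with 20.5, 23.4 and 23.5 CPM in ‘Summer Black’ and 1.69, 2.47 and 2.43 CPM in ‘Nantaihutezao’. Its log2 fold change was -3.34 ± 0.13, with an adjusted p of 4.09e-12 (edgeR). Lhcb1 VIT_10s0003g02890 was called later, at S7 with 78.6, 90.3 and 74.4 against 19.3, 20.7 and 21.4 CPM, at S8 and at S9. The S9 value of -1.10 ± 0.30 was no longer called without replicate 1 or 2 of ‘Nantaihutezao’ or replicate 2 of ‘Summer Black’.

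A further Lhcb1 gene, VIT_12s0028g00320, varied greatly among replicates, with 0, 7.92 and 11.1 CPM in ‘Summer Black’ and 0.269, 0.862 and 0.858 CPM in ‘Nantaihutezao’ at S7. It had the lowest called value at that stage, -3.25 ± 0.91, although the groups overlapped. The call was lost in DESeq2 (adjusted p = 0.166), under glmTreat and without replicate 3 of ‘Summer Black’ (0.056, edgeR). Summed over the 5 Lhcb1 genes, the level at S7 was 101 ± 11.9 CPM in ‘Summer Black’ and 26.4 ± 1.42 CPM in ‘Nantaihutezao’.

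Lhca5 (VIT_18s0001g10550) was lower at S5 and S6, with log2 fold changes of -1.95 ± 0.29 and -2.49 ± 0.51. At S7 its 9, 16 and 21 reads in ‘Summer Black’ and 0, 1 and 1 reads in ‘Nantaihutezao’ did not overlap but fell short of the filter on low counts. Without this filter, in DESeq2 and in 1 fit of all 36 libraries it was called lower at S7, and in the last of these also at S8, S9 and S10. PsbQ VIT_00s0904g00010 was at 138, 131 and 134 CPM in ‘Summer Black’ and at 49.5, 55.5 and 55.4 CPM in ‘Nantaihutezao’ at S5, a log2 fold change of -1.32 ± 0.05 with an adjusted p of 1.03e-12 (edgeR). PsbY (VIT_01s0137g00210), a small membrane protein of photosystem II, held 37.2, 34.2 and 35.1 against 11.5, 12.4 and 12.5 CPM at S5. For PsbY the groups did not overlap at S5 or S7, and the log2 fold change was -1.54 ± 0.07 and -1.49 ± 0.09.

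The PsbA-like model VIT_13s0019g02630, named for the D1 protein of the photosystem II core, had the lowest value of any member at S5. At S5 it was at 149, 116 and 39.4 CPM in ‘Summer Black’ and at 2.38, 6.69 and 4.18 CPM in ‘Nantaihutezao’, and the log2 fold change was -4.50 ± 0.44. The replicates of ‘Summer Black’ spread widely, yet the groups did not overlap. It was also called lower at S7 (-2.29 ± 0.20) and at S9 (-1.75 ± 0.50). The call at S9 was lost in DESeq2 (adjusted p = 0.0893), without replicate 1 (0.106, edgeR) or 2 (0.102) of ‘Nantaihutezao’, and without replicate 1 of ‘Summer Black’, where the log2 fold change was -0.95.

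In the other direction, PsaE (VIT_07s0005g04920), a stromal subunit of photosystem I, was higher in the bud sport at S9 and S10. At S10 its libraries held 4.1, 2.86 and 2.59 CPM in ‘Summer Black’ and 11, 10.4 and 8.62 CPM in ‘Nantaihutezao’, without overlap. The log2 fold change was 1.65 ± 0.17 with an adjusted p of 6.52e-07 (edgeR), and at S9 it was 1.22 ± 0.22. Lhcb1 VIT_19s0014g00160 was at 1.51, 1.24 and 0.971 against 3.7, 4.15 and 4.66 CPM at S10, with 1.74 ± 0.23 on the log2 scale. The PsbQ-like gene VIT_19s0014g05080 was at 0.27, 0.162 and 0.216 against 2.89, 2.02 and 1.34 CPM at S10, with 3.23 ± 0.44. The same gene had been lower at S6, at -1.29 ± 0.48, a call that was lost in DESeq2, without the filter, under glmTreat and on leaving out any library of S6 except replicate 3 of ‘Nantaihutezao’.

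FNR VIT_10s0003g04880 was higher in the bud sport at S5 to S8 and at S10 by less than the fold threshold, and no difference was detectable at S9. At S5 it held 120.0, 122 and 122 CPM in ‘Nantaihutezao’, above all libraries of ‘Summer Black’, with a log2 fold change of 0.53 ± 0.04.

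The changes from S5 to S10 were then compared between the cultivars in 1 fit of all 36 libraries. As a contrast this is the cultivar difference at S10 minus that at S5, so it is not independent of the results above. In 40 of 65 members tested the change differed (FDR under 0.05), where 49.4% of all 16846 genes did. In 37 members the difference was positive, that is, the change in ‘Nantaihutezao’ lay above that in ‘Summer Black’, and in 3 it was negative, against 22.0% and 27.4% of all genes. The median of this difference over the members tested was 0.65 on the log2 scale. All cultivar-by-stage terms together passed the test in 46 of 65 members, against 63.7% of all genes.

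The smallest p-values were those of PsaF (VIT_00s0125g00280), a subunit at which plastocyanin docks, of PsbQ VIT_00s0904g00010 and of PsbY (VIT_01s0137g00210). PsaF was at 67.4, 62.6 and 70 CPM in ‘Summer Black’ and 32.9, 36.6 and 32.5 CPM in ‘Nantaihutezao’ at S5, and at 13.6, 14.9 and 13.6 against 15.2, 12.8 and 13.9 CPM at S10. The cultivars were thus apart at S5 and overlapped at S10. The difference between the changes was 0.96 ± 0.10 for PsaF, 1.32 ± 0.14 for PsbQ and 2.22 ± 0.26 for PsbY. Of the 3 negative members, FNR VIT_10s0003g04880 was at -0.29 ± 0.06. Psb27 (VIT_12s0059g01810) and Psb28 (VIT_07s0005g04400), proteins linked to photosystem II assembly and named after their values were seen, were at -1.20 ± 0.19 and -0.89 ± 0.20.

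**Figure D4:**
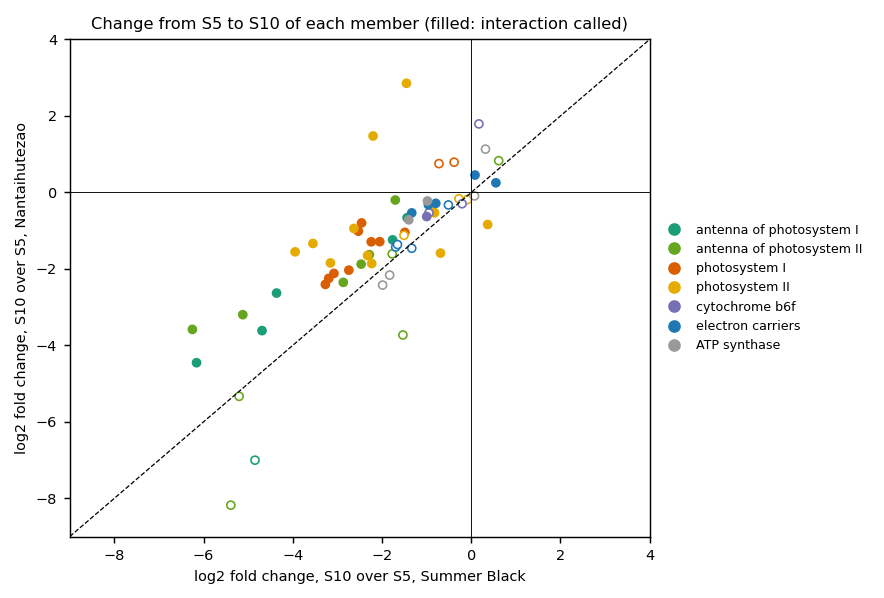
Log2 fold change from S5 to S10 in ‘Summer Black’ (x axis) and ‘Nantaihutezao’ (y axis) for the 62 members tested in both, coloured by role, with filled points where the changes differed between cultivars and a dashed line of equal change. Most filled points lie above the line, as in 37 of the 40 members whose change differed.

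Because the bud sport ripens early, ‘Nantaihutezao’ at each stage from S5 to S8 was also set against a later stage of ‘Summer Black’. By the study's steps of 7 days, that stage lay 14 days further from S5. These comparisons use the same libraries as those above and are not independent of them. ‘Nantaihutezao’ at S5 against ‘Summer Black’ at S7 had 12 of 62 members lower and 0 higher, against 2.88% lower and 6.8% higher among all genes. For S6 against S8, 0 were lower and 5 of 59 higher, against 3.32% and 4.63%. For S7 against S9, 1 was lower and 11 of 59 higher, against 1.75% and 3.98%. For S8 against S10, 0 were lower and 5 of 57 higher, against 2.51% and 2.08%. The medians of the members tested were -0.51, 0.11, 0.50 and 0.42 on the log2 scale.

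Lhca1 (VIT_13s0019g04140) at the shifted stages was lower by less than the fold threshold in the first comparison (-0.47 ± 0.08) and higher in the others, with 1.43 ± 0.11, 1.67 ± 0.15 and 1.25 ± 0.26. PsaE (VIT_07s0005g04920) was higher in the last 3 comparisons, with 1.19 ± 0.13, 2.10 ± 0.17 and 1.84 ± 0.17. PsaL (VIT_04s0023g00410) had values of -0.96, -0.26, -0.04 and -0.22 and was not called in any, although the first value passed the fold threshold without replicate 2 of ‘Nantaihutezao’ at S5 (-1.008) or replicate 1 of ‘Summer Black’ at S7 (-1.028).

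Genes of the neighbouring pathways were described in the same way. Of 81 other genes annotated to carbon fixation, which include enzymes shared with sugar metabolism, 9 of 57 tested were higher and 4 lower in ‘Nantaihutezao’ at S5 (all genes 7.51% and 8.63%), 1 higher and 2 lower at S7 (all genes 3.47% and 4.55%), and 3 higher and 2 lower at S10 (all genes 3.59% and 5.1%). Their medians at these stages were 0.29, -0.04 and 0.09 on the log2 scale. Their summed level in ‘Summer Black’ was 12060 ± 254 CPM at S5, 19300 ± 304.5 CPM at S6 and 16690 ± 32.1 CPM at S10. In ‘Nantaihutezao’ it was 18350 ± 326 CPM at S5 and 17790 ± 132 CPM at S10. From S5 to S10, 10 of 58 were higher and 11 lower in ‘Summer Black’, where 13.0% and 19.2% of all genes were. In ‘Nantaihutezao’, 5 of 57 were higher and 6 lower, where 11.2% and 17.6% of all genes were. Of 47 other genes of porphyrin and chlorophyll metabolism, 2 were higher and 4 lower at S5 of 38 tested (all genes 7.51% and 8.63%), with a median of 0.13. At S7 and S10, 0 of 36 passed both thresholds (edgeR), while 3 higher and 19 lower at S7 passed the FDR alone, against 23.4% and 24.3% of all genes. From S5 to S10, 8 of 38 were lower and 3 higher in ‘Summer Black’ (all genes 19.2% and 13.0%), and 6 of 36 lower and 1 higher in ‘Nantaihutezao’ (all genes 17.6% and 11.2%).

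Marker levels moved between the stages and between the cultivars, and their part in the results was not tested. The 28 cuticle genes ranged from 19.8 to 109.9 CPM in sum per library. Of these genes, 13 had no read in any library and 19, those 13 included, never had more than 3 reads in a library. Their sum went from 101 ± 12.1 CPM at S5 to 34.7 ± 1.12 CPM at S10 in ‘Summer Black’ and from 65.8 ± 7.28 to 25.3 ± 1.39 CPM in ‘Nantaihutezao’, so that it was lower at S10 in both, as the members were. Between the cultivars the mean sum was lower in ‘Nantaihutezao’ at S5, S7, S8 and S10, with 37.6 ± 10.8 against 24.2 ± 1.92 CPM at S7, and higher at S6, with 28.3 ± 2.6 against 40.4 ± 7.78 CPM, and at S9, with 22.1 ± 1.8 against 24.1 ± 0.972 CPM.

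The 7 seed storage and oil body genes, of which 2 had no read in any library, ranged from 3.40 to 26.0 CPM in sum. Their mean sum was higher in ‘Nantaihutezao’ at each of the 6 stages, with 3.55 ± 0.141 against 11 ± 1.05 CPM at S5, 10.3 ± 1.8 against 24.7 ± 1.63 CPM at S7 and 5.34 ± 0.621 against 6.58 ± 0.246 CPM at S10. At S9, with 12.4 ± 0.528 against 12.6 ± 1.12 CPM, the libraries overlapped. The anthocyanin gene UFGT (VIT_16s0039g02230), a marker of coloured skin, was at 6.87 ± 0.408 CPM in ‘Summer Black’ and 371 ± 19.1 CPM in ‘Nantaihutezao’ at S5, at 909.5 ± 9.61 and 763 ± 11 CPM at S7, and at 639 ± 23.6 and 297 ± 12.3 CPM at S10.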

How the data were processed

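Per the study's methods, the authors aligned trimmed reads to the Vitis vinifera reference with TopHat 2. The authors' table holds raw counts of reads for each gene and library, not normalized. FPKM values in that table were made by the authors with Cuffdiff and served here only to compare levels between genes. Columns with the authors' DESeq fold changes and FDR were left out. The labels and the methods name different RNA extraction reagents, and the read counter and its strand setting are not given in the sources used here.

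The counts were filtered (filterByExpr, minimum count 10, minimum total 15), scaled by TMM and tested by quasi-likelihood in edgeR (version 4.0.16, R version 4.3.3), with Benjamini-Hochberg adjustment over all genes tested. A call needed an FDR under 0.05 and a log2 change of more than 1 in either direction, or the FDR alone for interactions. Comparisons of groups used 6 libraries, those within a cultivar 18 and interactions 36. Tables and figures were made with Python 3.11.15, pandas 2.3.3 and matplotlib 3.10.9. Intervals and floors cover counting error only.

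Named members were, per role, the 2 with the highest mean CPM, per stage the 2 highest and 2 lowest called, per cultivar the 3 highest and 3 lowest called over S5 to S10, and the 3 with the smallest interaction p, except where stated. PsbR was named for its FPKM. The members, lists and rules were chosen with earlier results of these data known. On simulated counts with 200 genes changed by 2 on the log2 scale, the test at S7 recovered 193 and called 4 unchanged genes among 15240. For S5 to S10 in ‘Summer Black’ it recovered 188 and called 4 unchanged genes. The interaction test recovered 161 and called 11 unchanged genes. The 200 genes were changed up and down in equal number. Smaller changes, unequal directions and changes in a larger part of the genes were not simulated. In the data, 24.3% of all genes were lower and 23.4% higher at S7 by the FDR alone. The simulated counts of false calls therefore do not carry over to these data.

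As alternatives, DESeq2 (version 1.42.0), scaling by the upper quartile, dropping the filter, glmTreat, the replicate letter as a block, other sets of libraries in the fit and leaving out each library were run. For levels, unscaled library sizes and members without plastid-type models were used. For the interaction over all stages, leaving out a replicate letter was chosen after seeing the data.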

Additional observations from a re-analysis of the deposited data

Results flagged for a closer look

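The change from S5 to S10 differed between ‘Summer Black’ and ‘Nantaihutezao’ in 40 of 65 members tested, against 49.4% of all genes, by the test of that difference itself (edgeR, FDR under 0.05), and the cultivar difference changed with stage in 46 of 65, against 63.7% of all genes. The values below are the change in ‘Nantaihutezao’ minus that in ‘Summer Black’, on the log2 scale. They come from the same fit as the differences between the changes given above.

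In the antenna of photosystem I the difference was 1.71 for Lhca1 (VIT_13s0019g04140), 0.53 for Lhca2 (VIT_01s0010g03620), 1.74 for the second Lhca2-type gene (VIT_11s0016g00730), which no longer passed without replicate 3 of ‘Summer Black’ or replicate 2 or 3 of ‘Nantaihutezao’ at S10, and 0.783 for Lhca3 (VIT_15s0024g00040). In the antenna of photosystem II it was 2.68 and 1.51 for the Lhcb1 genes VIT_07s0005g02220 and VIT_19s0014g00160, and 0.662 for Lhcb2 (VIT_12s0057g00630).

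In photosystem I it was 0.967 for PsaD (VIT_05s0020g03180), 1.52 for PsaE (VIT_07s0005g04920), 0.959 for PsaF (VIT_00s0125g00280) and 0.77 for PsaL (VIT_04s0023g00410). In photosystem II it was 0.297 for PsbO (VIT_00s0207g00210), 0.383 for PsbP (VIT_12s0028g01080), 1.32 for PsbQ (VIT_00s0904g00010) and 2.22 for PsbY (VIT_01s0137g00210). The PsbQ-like gene VIT_19s0014g05080, placed here by its orthology number alone, and the PsbA-like model VIT_13s0019g02630 had 4.31 and 3.68.

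The Rieske protein VIT_19s0014g03850 had 0.375, and the ATP synthase subunits delta (VIT_18s0164g00030) and b' (VIT_04s0008g05590) had 0.691 and 0.765. The one negative value among these genes was -0.293, of FNR VIT_10s0003g04880.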

How the results depend on the processing

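glmTreat, which tests against the fold threshold itself, made fewer calls of members in most comparisons. It called 1 lower at S6, 9 at S7, 2 at S8 and 0 at S9, 0 higher at S9, and 1 higher over S5 to S10 in ‘Nantaihutezao’. The share of all genes that it called is not given here, so these counts cannot be set against that of other genes. Of the calls given above, glmTreat kept 10 of 14 at S5 and 3 of 3 at S10. Over S5 to S10 it kept 38 of 41 in ‘Summer Black’ and 31 of 38 in ‘Nantaihutezao’. In the shifted comparisons it called 4 lower for S5 against S7, 1 higher for S6 against S8, 4 higher and 0 lower for S7 against S9, and 1 higher for S8 against S10. The count of members lower at S10 was 1 in DESeq2, without the filter and with all 36 libraries, and that for S7 against S9 was 2 in DESeq2 and with all 36 libraries. The replicate letters did not pair the libraries, with correlations of same-letter deviations from -0.0563 to 0.0758 and 0 of 18 over 0.1. With the replicate block, 1 member was lower at S10, 1 for S6 against S8 and 2 for S7 against S9. With counted reads as library size, the summed CPM of ‘Summer Black’ was 4697 at S5, 3590 at S6 and 1706 at S9, and that of ‘Nantaihutezao’ 2398 at S6, 2439 at S7 and 1466 at S8. Without plastid-type models it was 3716 at S5 and 1177 at S10 in ‘Summer Black’, and 2437 at S6 and 2429 at S7 in ‘Nantaihutezao’. The causes were not tested.

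Leaving out 1 library at a time gave 0 to 2 members lower and 1 to 2 higher at S9, 0 to 2 lower at S10, 0 to 1 higher for S5 against S7, and 0 to 2, 0 to 2 and 0 to 2 lower in the later shifted comparisons. It gave 14 to 17 lower at S5, 14 to 22 at S7 and 4 to 9 at S8, and 38 to 41 members with a differing change. Of the 87 members, 22 had too few reads to be tested over the 36 libraries, so that no difference in them was detectable here. Among them, 17 had no read in any library, and 16 of these 17 were plastid-type models.

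Among named members, signs turned only for those whose difference was not called. Under upper-quartile scaling PsbO was at -0.0527 and the second Rieske copy at -0.0628 at S5 (interaction 0.0112), Lhca3 at -0.00487 at S9, Lhcb4 at -0.0258 for S6 against S8, and PsaL at 0.0129 and the Rieske gene VIT_19s0014g03850 at 0.05002 for S7 against S9. Lhca3 at S9 was at -0.00058 without the filter and -0.00403 with all 36 libraries. The Rieske gene for S7 against S9 was at 0.0112 in DESeq2, 0.0106 without the filter and 0.0214 with all 36 libraries. With 1 library left out, the range was -0.0124 to 0.08775 for the second Rieske copy at S5, -0.133 to 0.0371 at S10 and -0.166 to 0.00236 for its interaction. It was -0.265 to 0.00442 for PsaD, -0.316 to 0.00239 for Lhcb4 and -0.05115 to 0.0666 for Lhca3 at S9, and -0.0837 to 0.118 for Lhca2, -0.138 to 0.00664 for Lhcb4 and -0.0233 to 0.0379 for the Rieske gene at S10. For the shifted comparisons it was -0.0938 to 0.095 for Lhcb4, -0.0892 to 0.0277 for PsaL and -0.01315 to 0.0263 for the Rieske gene.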
